A study of Mus musculus with 4 samples.

Results

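The genes described here encode proteins for cell-cell fusion and matrix adhesion of osteoclast precursors. They are Dcstamp, Ocstamp, Atp6v0d2, Cd9, Cd81, Adam8, Itgav, Itgb3 and Cd44, 9 of the 53801 genes in the deposited count table. They were chosen by exact symbol, and each symbol had 1 gene ID. The RNA came from wild type C57BL/6 osteoclast precursors, exposed for 3 h to DKK1 at 200 ng/ml or to PBS, the buffer control. DKK1 is a secreted protein that blocks canonical Wnt signalling at its LRP co-receptors. Cells of 2 mice, called precursor cells 1 and precursor cells 2, were each split between the treatments, which gave 2 DKK1 libraries and 2 PBS libraries in 2 pairs. The labels name 2 mice and number the cells, and each number is read here as 1 mouse. The labels state neither the tissue the cells came from nor any cytokine in their medium.

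Osteoclasts are multinucleated bone-resorbing cells that form when myeloid precursors adhere to matrix and to each other and then fuse. DC-STAMP and OC-STAMP (Dcstamp, Ocstamp) are related multipass membrane proteins required for this fusion in mice. Atp6v0d2, a d subunit of the vacuolar proton pump, and the metalloprotease-disintegrin ADAM8 also promote it. The tetraspanins CD9 and CD81 organise partner proteins in the plasma membrane, and mouse macrophages that lack them fuse more. The αv and β3 chains (Itgav, Itgb3) form the vitronectin receptor, the main integrin of mature osteoclasts, which binds RGD motifs in matrix proteins such as osteopontin. CD44 is a receptor for hyaluronan and osteopontin.

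The libraries held 41163663 to 53537927 counts, and 17462 genes, all 9 described here among them, passed the filter on low counts. The mice differed in 5905 genes and the treatments in 9, with edgeR (threshold as for the set, given with the first comparison). Tests of DKK1 were made within pairs. All 10 monocyte and macrophage markers were tested. Their mean levels ran from 3.65 FPKM (fragments scaled to gene length and depth by the authors) for Cx3cr1 to 757 FPKM for Cd68. Csf1r and Adgre1 had 421 and 594 FPKM, and Ccr2 had 8.88 FPKM. Osteoclast markers were uneven: Acp5 had a mean of 177 FPKM, Calcr had 0 counts in every library and Oscar at most 6. Dcstamp, on the same list, had 15 to 96 counts per library. Mmp9, Tnfrsf11a, Ctsk and Nfatc1 had means of 109, 30.1, 9.55 and 5.48 FPKM. The 9 neutrophil markers ran from a mean of 6.26 FPKM for Ly6g to 2870 FPKM for S100a9. The RNA thus held macrophage, neutrophil and some osteoclast markers, and of the osteoclast list Calcr and Oscar were at or near 0.

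Levels between genes were compared per length, by the FPKM in the authors' deposited tables. Adam8 was the most abundant, with 271 and 217 FPKM with DKK1 and 271 and 218 FPKM with PBS in precursor cells 1 and 2. Cd9 followed with 64.4 to 88.3 FPKM over the 4 libraries, Cd44 with 39.4 to 64.3 and Itgb3 with 36.3 to 53.6. Itgav had 8.32 to 17.8 FPKM, Cd81 4.52 to 7.08 and Atp6v0d2 2.92 to 4.26. Dcstamp was at 0.571 FPKM with DKK1 and 0.593 FPKM with PBS in precursor cells 1, and Ocstamp at 0.395 FPKM with each treatment. Neither gene is listed for precursor cells 2 in those tables. In this order, Cd44 and Itgb3 had overlapping ranges, Cd9 lay above Cd44 by less than either spread, and the other neighbours did not overlap. For Dcstamp and Ocstamp this rests on precursor cells 1 alone, and their order in precursor cells 2 was not compared. Adam8, Cd9, Cd44 and Itgb3 were thus the most abundant of the set, and the fusion genes Dcstamp and Ocstamp the lowest.

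**Figure D1:**
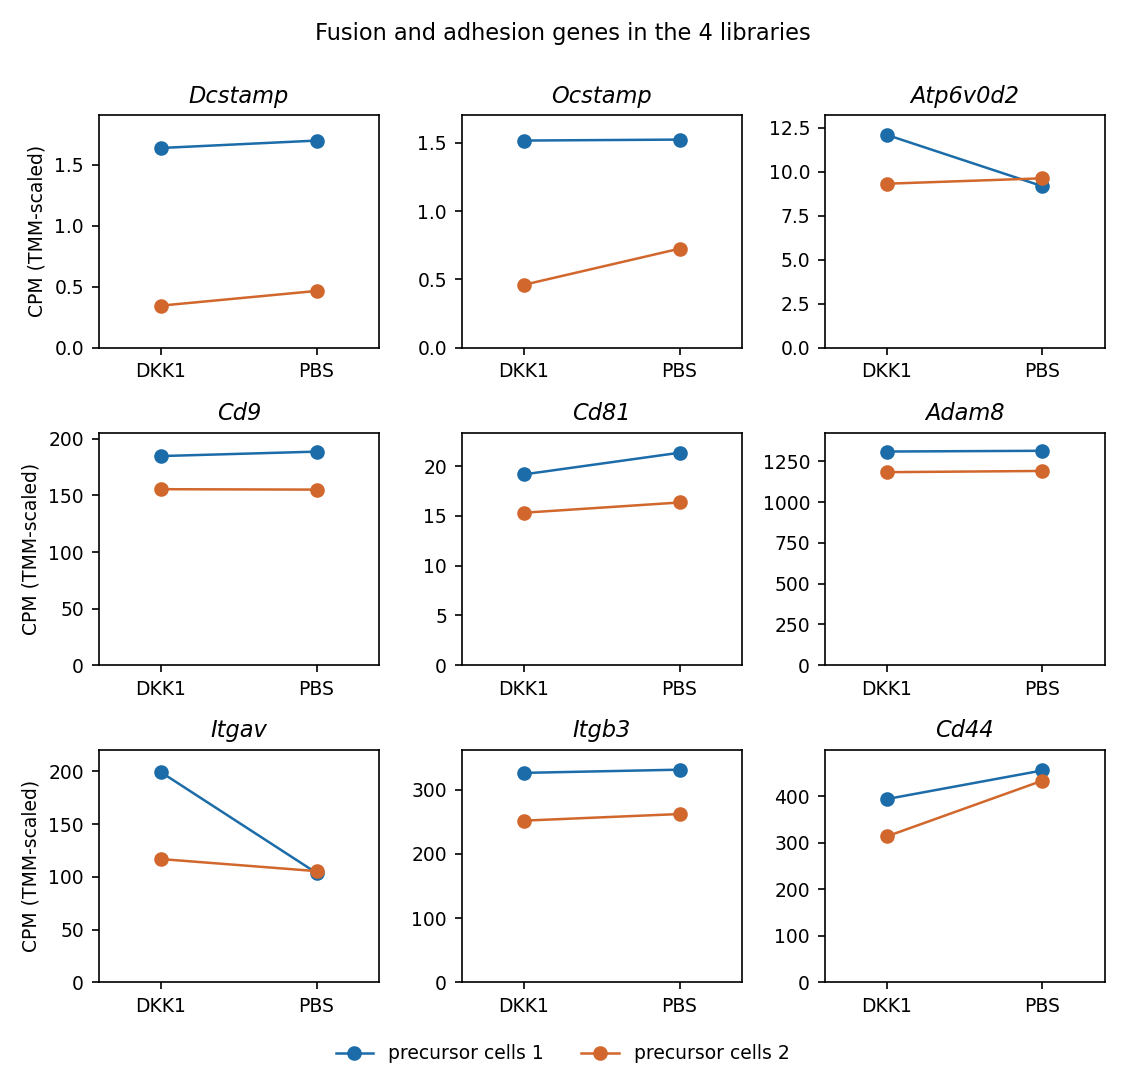
Level of each gene in the 4 libraries, as CPM (counts scaled to library size with TMM factors; vertical axis from 0), with DKK1 left and PBS right. Lines join the libraries of 1 mouse (blue, precursor cells 1; orange, precursor cells 2). Itgav is higher with DKK1 mainly in precursor cells 1, Cd44 is lower with DKK1 in both pairs, and Dcstamp and Ocstamp are lower in precursor cells 2 with either treatment.

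The first comparison asked whether exposure to DKK1 changes these genes. None passed the test: edgeR's quasi-likelihood test called 0 of 9 (adjusted p under 0.05, Benjamini-Hochberg over all 17462 genes), against 0.0515% of all genes tested (0.0401% higher and 0.0115% lower). DESeq2 and limma-voom also called 0. An unadjusted p under 0.05 was reached by 2 of 9, Itgav and Cd44, against 4.47% of all genes. The same 2 were the genes whose DKK1 and PBS libraries did not overlap, which was the case for 16.2% of all genes. In 7 of 9 the pairs had the same sign, against 51.7% of all genes. The median log2 change of the 9 was -0.04, beside -0.0015 for all genes tested. With 2 pairs, p-values rest on 1 residual degree of freedom and on the spread that edgeR shares across genes.

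Itgav, the αv integrin chain, had 199 and 117 CPM with DKK1 in precursor cells 1 and 2, against 104 and 105 CPM with PBS. In counts these were 11301 and 5081 with DKK1, and 5856 and 4076 with PBS. The PBS libraries lay side by side, and the DKK1 library of precursor cells 1 stood apart from the other three. The ratio of DKK1 to PBS was 1.92 for precursor cells 1 and 1.11 for precursor cells 2. On the log2 scale these are 0.94 (95% counting interval 0.90 to 0.99) and 0.15 (0.09 to 0.21), so counting error does not span the gap between the pairs. The fitted log2 change was 0.56 (SE 0.18, 95% CI 0.11 to 1.00, n = 2 pairs), with an edgeR adjusted p of 0.959. Without the DKK1 library of precursor cells 1 it was 0.16, in a fit that cannot hold the pairing. The authors' deposited table for precursor cells 1 gives a log2 ratio of 0.94 with an FDR of 2.87e-40, and that for precursor cells 2 gives 0.15 with an FDR of 0.147. Both tables set 1 library against 1, and 19% and 16.7% of their genes have an FDR under 0.05. None of the set is among the authors' calls, which take an FDR under 0.05 and an absolute log2 ratio of at least 1, and which hold 0.921% and 0.987% of the genes in these tables.

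Itgav (ENSMUSG00000027087) is a protein-coding gene on chromosome 2 of GRCm38 (mm10), from 83724397 to 83806916 on the plus strand, with 9 annotated transcripts. An antisense model, Gm13684, overlaps its exons by 634 bases but held at most 23 counts in any library, so Itgav had 99.8% of the summed counts. No near-identical transcript of another gene was found for any of the 9 genes. The others, protein-coding as well, lie on chromosome 15 from 39745930 to 39760938 (Dcstamp, plus strand), chromosome 2 from 165393760 to 165400405 (Ocstamp, minus strand), chromosome 4 from 19876841 to 19922605 (Atp6v0d2, minus strand), chromosome 6 from 125460266 to 125494791 (Cd9, minus strand), chromosome 7 from 143052739 to 143067934 (Cd81, plus strand) and from 139978932 to 139992562 (Adam8, minus strand), and chromosome 11 from 104608000 to 104670476 (Itgb3, plus strand).

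Cd44 had 394 and 314 CPM with DKK1 in precursor cells 1 and 2, against 456 and 434 CPM with PBS. Both DKK1 libraries lay below both PBS libraries. The log2 differences were -0.21 (95% counting interval -0.24 to -0.18) in precursor cells 1 and -0.47 (-0.50 to -0.43) in precursor cells 2. The fitted log2 change was -0.34 (SE 0.07, 95% CI -0.51 to -0.16, n = 2 pairs), with an unadjusted p of 0.00359 and an edgeR adjusted p of 0.734. With other scalings, filters and tools the adjusted p of Cd44 ran from 0.157, in DESeq2, to 0.845, in edgeR with upper-quartile scaling. The authors' deposited tables give log2 ratios of -0.20 (FDR 0.0119) and -0.46 (FDR 1.71e-10).

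Marker sums of other cell types differed between treatments in some pairs, although 0 markers passed edgeR's test. B cells also carry CD44 and CD81. The 8 B cell markers, all tested, summed to 125 and 29.2 CPM with DKK1, against 195 and 29.8 CPM with PBS (Vpreb1 was at 0 in precursor cells 2). The 8 erythroid markers summed to 78.4 and 129 CPM with DKK1, against 109 and 167 CPM with PBS. The 6 mast cell and basophil markers summed to 27.5 and 49.4 CPM with DKK1, against 32.3 and 56.9 CPM with PBS. The 8 stromal and osteoblast markers summed to 109 and 145 CPM with DKK1, against 86.3 and 152 CPM with PBS. Of markers tested, 4 of 8 B cell and 4 of 7 erythroid ones had an unadjusted edgeR p under 0.05, against 4.47% of all genes. It was 3 of 10 for monocytes and macrophages, and 1 each for the mast cell and basophil, stromal and osteoblast, neutrophil and osteoclast lists. For the megakaryocyte and platelet, T and NK cell and endothelial lists it was 0. Their part in the values of Cd44, Cd81 and Itgav was not tested. In bulk RNA, fewer cells of a type and less RNA per cell cannot be told apart.

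Itgav and Cd44 had the smallest p of the set. Both lie on chromosome 2, as does Ocstamp, which had an unadjusted edgeR p of 0.715. Cd44 (ENSMUSG00000005087) spans 102811141 to 102901665 on the minus strand. The 250 bases before the RefSeq start of each gene (GRCm38.p6; Itgav at chr2:83724147-83724396, plus strand; Cd44 at chr2:102901666-102901915, minus strand) are shown because these genes have the largest fitted changes with DKK1. Capitals mark matches, on either strand, to GGAAA, the core of NFAT sites.
Itgav: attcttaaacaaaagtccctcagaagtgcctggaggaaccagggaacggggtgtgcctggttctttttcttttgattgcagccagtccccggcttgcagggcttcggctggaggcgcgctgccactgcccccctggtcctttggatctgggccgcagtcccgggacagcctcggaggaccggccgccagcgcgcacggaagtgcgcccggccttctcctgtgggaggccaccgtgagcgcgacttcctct
Cd44: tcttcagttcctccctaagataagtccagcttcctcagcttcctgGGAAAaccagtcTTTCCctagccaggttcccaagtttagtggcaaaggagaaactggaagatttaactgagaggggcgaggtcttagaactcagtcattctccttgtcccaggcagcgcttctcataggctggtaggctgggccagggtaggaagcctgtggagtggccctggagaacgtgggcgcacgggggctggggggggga
The search also covered GGGCGG (the GC box), TATAAA (the TATA box), TGANTCA (AP-1) and CTTTGA (TCF/LEF). Cd44 had 2 matches to GGAAA, which do not overlap, and none to the others, and Itgav had none to any of the 5. Of 32851 RefSeq promoter windows of this length, 55.6% hold GGAAA, 32.7% GGGCGG, 13.8% CTTTGA, 12.4% TATAAA and 6.7% TGANTCA. Entries were at hand for 5 of the 9 genes, and Cd81, Cd9 and Adam8 had 3, 2 and 1 matches to GGGCGG.

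**Figure D2:**
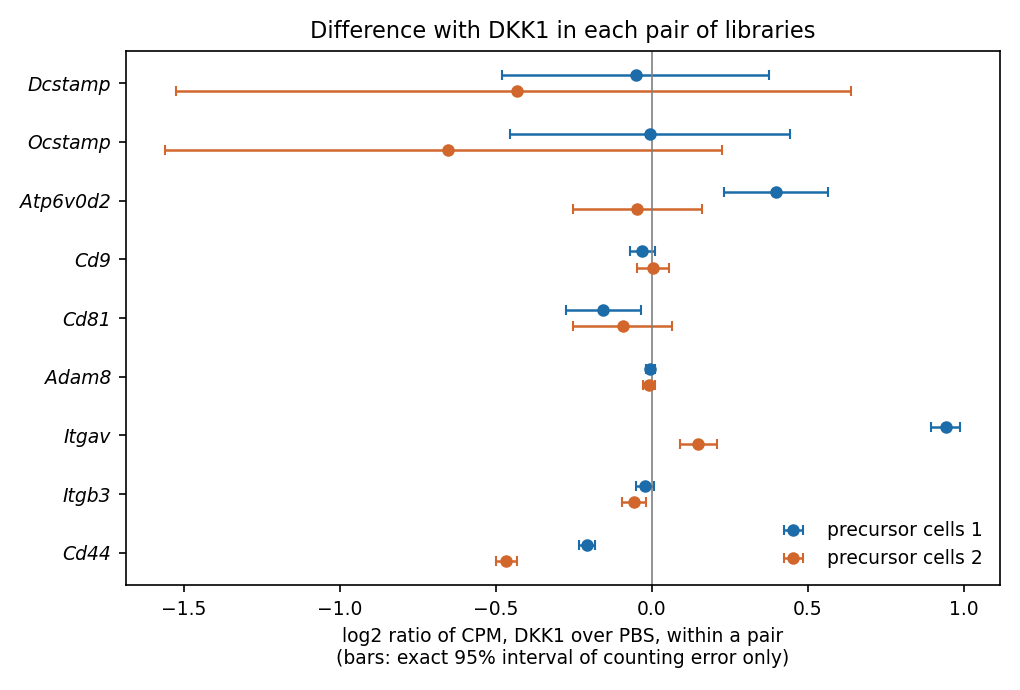
Log2 ratio of CPM, DKK1 over PBS (horizontal axis), for each gene in precursor cells 1 (blue) and precursor cells 2 (orange), with exact 95% intervals of counting error as bars. Itgav (0.94 and 0.15) and Cd44 (-0.21 and -0.47) lie away from 0 in both pairs, Adam8, Cd9 and Itgb3 lie near 0, and the bars of Dcstamp and Ocstamp are wide.

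Itgb3, the other chain of the vitronectin receptor, differed little between treatments. It had 326 and 252 CPM with DKK1 in precursor cells 1 and 2, against 331 and 262 CPM with PBS. The groups overlapped, and the fitted log2 change was -0.04 (95% CI -0.16 to 0.08, n = 2 pairs; edgeR adjusted p = 0.97). Per length, Itgav was at 0.335 and 0.255 of the Itgb3 level with DKK1, against 0.172 and 0.221 with PBS. Other β chains that pair with αv were Itgb5, at a mean of 47.5 FPKM, and Itgb1, at 107 FPKM, with log2 changes of -0.04 and 0.06. Itgb8 had 17 to 72 counts per library and Itgb6 at most 6. No β partner of αv that was tested passed, and Itgb6 was too low for the filter on low counts.

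Itgb3 also pairs with Itga2b to form the platelet fibrinogen receptor. Itga2b had a mean of 33.6 FPKM, above the 11.1 FPKM of Itgav, and a log2 change of -0.06 with DKK1. All 9 megakaryocyte and platelet markers were detected in every library, and they summed to 1955 and 1358 CPM with DKK1, against 2054 and 1361 CPM with PBS. The platelet chemokines Pf4 and Ppbp were the most abundant, at 748 and 362 FPKM. How much of Itgb3 and Cd9, which platelets also carry, comes from such RNA was not tested.

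Among the tetraspanins, Cd9 had 185 and 156 CPM with DKK1 in precursor cells 1 and 2, against 189 and 155 CPM with PBS. Its fitted log2 change was -0.01 (95% CI -0.15 to 0.13; edgeR adjusted p = 0.994, n = 2 pairs). Cd81 had 19.2 and 15.3 CPM with DKK1, against 21.4 and 16.3 CPM with PBS, a log2 change of -0.13 (95% CI -0.41 to 0.15; edgeR adjusted p = 0.97, n = 2 pairs). The DKK1 value was the lower one in each pair for Cd81, and the treatment groups overlapped for both genes. Cd9 was 12.5 to 14.3 times as abundant as Cd81 per length in every library. An antisense model, Gm26728, overlaps Cd9 by 218 bases and had 10 and 173 counts with DKK1, against 304 and 206 with PBS; no strand setting is stated, so reads of the overlap cannot be told apart. Summed with it, the log2 change of Cd9 was -0.04. The immunoglobulin-family partners of these tetraspanins, Igsf8 and Ptgfrn, had log2 changes of -0.23 and 0.01.

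Adam8 had 1311 and 1184 CPM with DKK1 in precursor cells 1 and 2, against 1315 and 1192 CPM with PBS. The fitted log2 change was -0.01 (SE 0.03, 95% CI -0.09 to 0.08, n = 2 pairs; edgeR adjusted p = 0.995), the narrowest interval of the set. Its level differed more between the mice than between treatments.

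Atp6v0d2, the d subunit tied to fusion in mice, had 12.1 and 9.32 CPM with DKK1 in precursor cells 1 and 2, against 9.17 and 9.62 CPM with PBS. The DKK1 library of precursor cells 1 was again the high one, and the pairs had opposite signs. The log2 differences were 0.40 (95% counting interval 0.23 to 0.57) in precursor cells 1 and -0.05 (-0.25 to 0.16) in precursor cells 2. The authors' deposited log2 ratios were 0.39 (FDR 0.00216) and -0.04 (FDR 0.887). The fitted log2 change was 0.20 (95% CI -0.22 to 0.63, n = 2 pairs; edgeR adjusted p = 0.968). The ubiquitous d subunit, Atp6v0d1, was 19.9 and 24.0 times as abundant per length with DKK1, against 27.5 and 24.0 times with PBS, and had a log2 change of -0.06.

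The fusion genes Dcstamp and Ocstamp were too rare for a narrow estimate. Dcstamp had 93 and 15 counts with DKK1 in precursor cells 1 and 2, against 96 and 18 counts with PBS. Ocstamp had 86 and 20 counts with DKK1, against 86 and 28 counts with PBS. The fitted log2 changes were -0.11 (95% CI -1.19 to 0.97) for Dcstamp and -0.16 (95% CI -1.17 to 0.86) for Ocstamp (edgeR adjusted p = 0.993 and 0.988, n = 2 pairs). Both intervals hold changes of either sign. They do not mark the size of change that the test over all genes would have called.

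**Figure D3:**
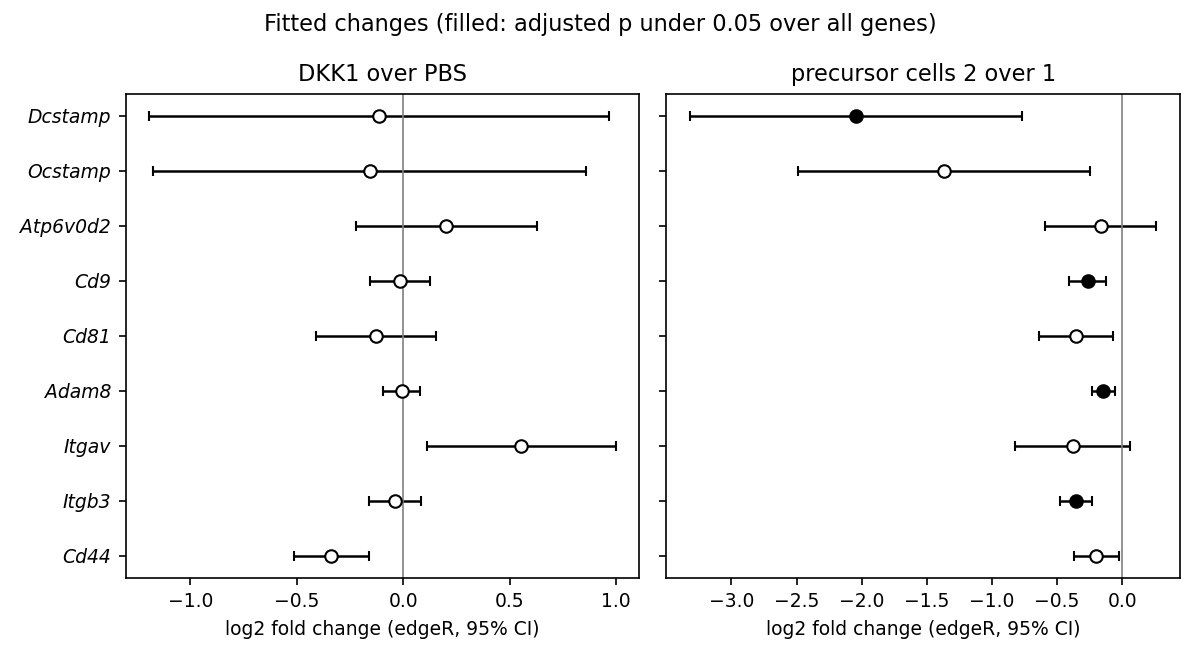
Fitted log2 fold changes with 95% confidence intervals (edgeR, 4 libraries) for DKK1 over PBS (left) and precursor cells 2 over 1 (right), with separate horizontal scales. Filled points passed the test over all genes: 0 of 9 on the left, and Dcstamp, Cd9, Adam8 and Itgb3 on the right.

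The second comparison shows how the genes varied between the cells of the 2 mice. Each mouse gave 1 preparation, so it compares these preparations and not a trait of the mice. All 9 genes had lower fitted levels in precursor cells 2, a direction shared by 50.2% of all genes tested. In the PBS libraries alone, Atp6v0d2 and Itgav were not lower in precursor cells 2 (log2 0.07 and 0.02). In edgeR's test 4 of 9 were lower at an adjusted p under 0.05, against 15.9% of all genes that were called lower, 17.9% called higher and 33.8% called in either direction. For 6 of 9 both libraries of precursor cells 2 lay below both of precursor cells 1, against 35.3% of all genes. The median log2 difference of the 9 was -0.35, beside -0.0034 for all genes.

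Dcstamp had the largest fitted difference, in a call that did not hold under every alternative. It had 0.345 and 0.466 CPM with DKK1 and PBS in precursor cells 2, against 1.64 and 1.70 CPM in precursor cells 1. Dcstamp was 4.13-fold lower in precursor cells 2 (log2 -2.04, SE 0.51, 95% CI -3.32 to -0.77, n = 2 libraries each; edgeR adjusted p = 0.0292). This call ended with DESeq2 (adjusted p = 0.092), with no filter (edgeR adjusted p = 0.0935) and whichever library was left out (edgeR adjusted p from 0.053 to 0.0976). Ocstamp had 0.460 and 0.724 CPM in precursor cells 2, against 1.52 CPM with either treatment in precursor cells 1 (log2 -1.37, 95% CI -2.49 to -0.25; edgeR adjusted p = 0.0667). Both genes were lower in precursor cells 2 with DKK1 as well as with PBS. Osteoclast markers differed in both directions. Ctsk, the collagen-degrading cathepsin, and Acp5 were higher in precursor cells 2 (log2 2.27 and 0.42; edgeR adjusted p = 0.00126 and 0.00498), and Mmp9 was lower (log2 -0.87; edgeR adjusted p = 9.26e-05).

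The abundant genes differed by less, with narrower errors. Itgb3 had 252 and 262 CPM with DKK1 and PBS in precursor cells 2, against 326 and 331 CPM in precursor cells 1 (log2 -0.36, SE 0.05; edgeR adjusted p = 0.00369). Cd9 had 156 and 155 CPM in precursor cells 2, against 185 and 189 CPM in precursor cells 1 (log2 -0.27, SE 0.06; edgeR adjusted p = 0.0165). For Adam8 the log2 difference was -0.14 (SE 0.03; edgeR adjusted p = 0.0248). Cd81 (log2 -0.35), Cd44 (-0.20), Itgav (-0.38) and Atp6v0d2 (-0.16) did not pass (edgeR adjusted p = 0.0621, 0.0807, 0.16 and 0.513). Itgav had 117 and 105 CPM with DKK1 and PBS in precursor cells 2, against 199 and 104 CPM in precursor cells 1. Without the PBS library of precursor cells 1 its difference was -0.84 and passed (edgeR adjusted p = 0.00224), and without the DKK1 library of precursor cells 1 it was 0.10. Of the 21 other fusion genes, 5 were called higher and 8 lower in precursor cells 2, against 17.9% and 15.9% of all genes.

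Marker sums also differed between the preparations. The 10 monocyte and macrophage markers summed to 10208 to 10288 CPM in precursor cells 2, against 7428 to 7530 CPM in precursor cells 1. Of these, 6 were called higher and 2 lower in precursor cells 2, against 17.9% and 15.9% of all genes. Megakaryocyte and platelet markers summed to 1358 to 1361 CPM in precursor cells 2, against 1955 to 2054 CPM in precursor cells 1. The B cell sums were 29.2 to 29.8 CPM in precursor cells 2, against 125 to 195 CPM in precursor cells 1. In precursor cells 2, 4 of 9 megakaryocyte and platelet markers and 8 of 8 B cell markers were called lower, and 0 higher. The 9 neutrophil markers, all called higher in precursor cells 2 (against 17.9% of all genes), summed to 9001 to 9214 CPM there, against 4815 to 4843 CPM in precursor cells 1. Endothelial markers summed to 110 to 116 CPM in precursor cells 2, against 41.5 to 44.8 CPM in precursor cells 1. Erythroid markers summed to 129 to 167 CPM in precursor cells 2, against 78.4 to 109 CPM in precursor cells 1. Mast cell and basophil markers summed to 49.4 to 56.9 CPM, against 27.5 to 32.3 CPM. Of those tested, 3 of 5 endothelial, 5 of 7 erythroid and 4 of 6 mast cell and basophil markers were called higher, and 0 lower. The part of these cell types in the differences of the 9 genes was not tested. The call for Itgb3 held whichever library was left out. That for Adam8 ended whichever was left out (edgeR adjusted p from 0.0552 to 0.115). That of Cd9 ended without either library of precursor cells 2 (edgeR adjusted p = 0.0677 without DKK1 and 0.07 without PBS). In such fits the lone library of a mouse is taken to vary like the other group.

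Related genes from 7 lists were read beside the set. Over these lists, 0 of 113 tested genes outside the set passed edgeR's test with DKK1, against 0.0515% of all genes (11 had an unadjusted p under 0.05, against 4.47% of all genes; DESeq2 and limma-voom called 0), with 54 positive and 59 negative log2 changes. The median log2 change was -0.01, against -0.0015 for all genes.

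Of 24 integrin chains tested, 12 had a positive and 12 a negative log2 change. The leukocyte chains Itgb2 and Itgam and the fibronectin receptor chain Itga5 were the most abundant (288, 117 and 164 FPKM), with log2 changes of -0.02, 0.18 and -0.06. Itga3 and Itga7, laminin receptor chains, had the largest fitted changes (log2 3.46 and 2.88). They rest on few reads: Itga3 had 35 and 26 counts with DKK1, against 0 and 5 with PBS, and Itga7 had 39 and 49 with DKK1, against 7 and 4 with PBS. These 2 genes were chosen after their values were seen. The 21 integrin adaptors and kinases had a median log2 change of 0.0007, with 0.06 for the GTPase Rap1b, -0.03 for the kindlin Fermt3 and -0.01 for the talin Tln1.

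All 7 ADAM proteases tested, Adam8 among them, had a negative log2 change, against 8799 of all 17462 genes tested. The changes ran from -0.35 to -0.01 with a median of -0.08, and 0 of the 7 passed edgeR's test. Adam17, the TNF-releasing sheddase, had log2 differences of -0.06 and -0.65 in precursor cells 1 and 2, and Adam9 had -0.21 and -0.33 (fitted log2 -0.35 and -0.27; edgeR adjusted p = 0.959 and 0.79). Of 20 tetraspanins tested, 9 had a positive and 11 a negative change. The leukocyte tetraspanin Cd53 and the lysosomal Cd63 had log2 changes of 0.01 and -0.02.

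Of the 21 other fusion genes, 12 had a positive and 9 a negative change. The adaptor Tyrobp and the GTPase Rac2 had log2 changes of 0.06 and -0.06. Sirpa, the receptor for CD47 in macrophage fusion, had a fitted value of -0.0049 that joins opposite differences: 30427 and 74462 counts with DKK1 in precursor cells 1 and 2, against 72507 and 27825 with PBS (log2 -1.26 and 1.25). The counting method is not stated, and whether reads were assigned to other gene models in some libraries was not tested. Rac1, which drives the actin rearrangement of fusing cells and was chosen after its values were seen, had log2 differences of 1.38 and 0.40 (fitted 0.91; unadjusted p = 0.00642). As for Itgav, the DKK1 library of precursor cells 1 was the highest of the 4 for Rac1, with 20152 counts. The scavenger receptor Cd36, a partner of CD9 in macrophages, had a log2 change of 0.11.

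Among matrix ligands of these receptors, Spp1 (osteopontin) was abundant at 325 FPKM, with a log2 change of 0.10, and Fn1 (fibronectin) had -0.13. Vtn had 0 counts in every library. Ibsp (bone sialoprotein) had 83 and 5 counts with DKK1, against 26 and 0 with PBS. Of the hyaluronan synthases, Has3 had 527 to 842 counts per library and a log2 change of -0.20, Has2 -0.24 and Has1 0.57, and none passed the test. Cd74, whose product associates with CD44, had -0.21, and Msn, which links CD44 to actin, -0.03. In the V0 sector of the proton pump, 4 of 10 genes had a positive change, with -0.08 for Tcirg1, 0.15 for Atp6v0c and 0.02 for Atp6v0b.

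**Figure D4:**
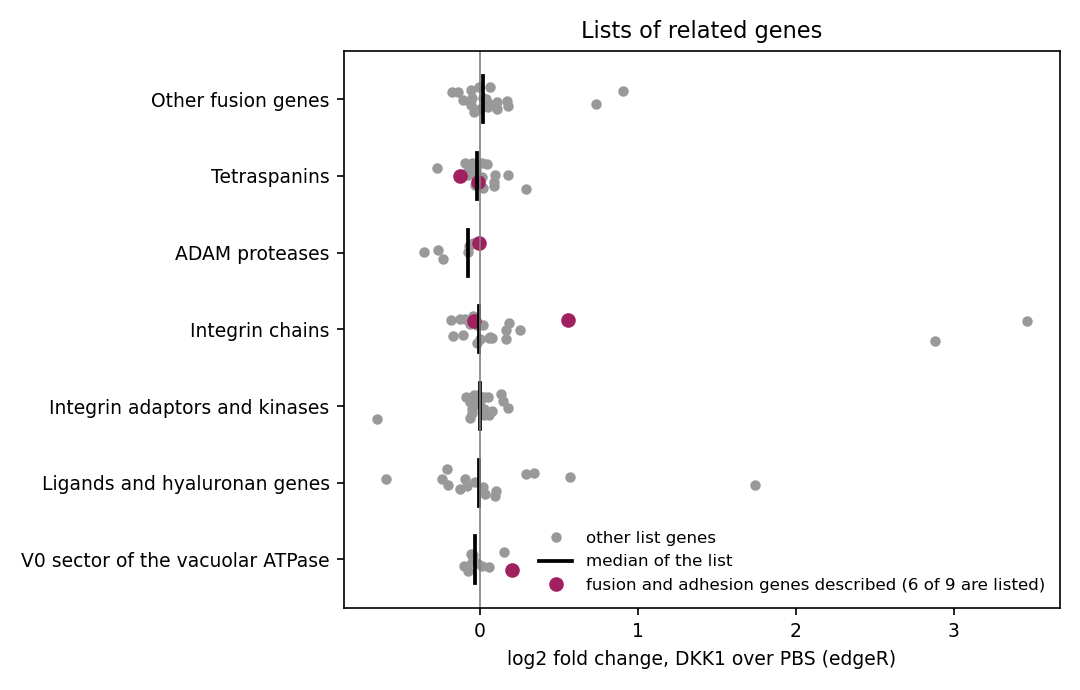
Fitted log2 fold change, DKK1 over PBS (horizontal axis), of each tested gene in 7 lists (rows); points are genes, spread vertically for legibility, larger coloured points are the 6 of the 9 genes that a list holds, and black bars are list medians. Medians lie between -0.08 and 0.02, and Itgav stands at 0.56 in the integrin row.

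The gene with the nearest profile to each of the 9 was sought by the Euclidean distance of log2 CPM, centred per gene, over the 4 libraries and 9984 or 9985 genes. It was Tbc1d24 for Itgav (distance 0.07), Tex30 for Cd44 (0.05), Surf4 for Itgb3 (0.0086), Psmc3ip for Cd9 (0.008), Ptpa for Cd81 (0.02), Arl8a for Adam8 (0.009), Atp6v0c for Atp6v0d2 (0.04), Treml4 for Dcstamp (0.09) and Ptp4a3 for Ocstamp (0.18). Profiles like those of Adam8, Cd9 and Itgb3 were common, with 521, 377 and 289 genes within a distance of 0.1. Fewer lay within it for Cd81 (129), Atp6v0d2 (19), Cd44 (3), Itgav (2), Dcstamp (1) and Ocstamp (0). Tbc1d24 had 24.9 and 14.3 CPM with DKK1, against 13.4 and 13.7 CPM with PBS. It was picked for its likeness to Itgav, so its high DKK1 library of precursor cells 1 follows from that choice.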

How the data were processed

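RNA-seq counts of 4 libraries were taken from the authors' deposited count table, in whole numbers per gene, with no scaling. The submitters' processing notes name fastp, HISAT2 and mm10; no source used here gives the counting program, annotation or strand setting. Per the file headers, 2 comparison tables of 1 library against 1 give the authors' log2 ratio, p-value and FDR, and FPKM values, scaled by the authors for length and depth. Their counts equal the count table (0 differing).

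The filter was edgeR's filterByExpr (17462 of 53801 genes, 99.95% of counts). The fit was edgeR 4.0.16 quasi-likelihood (TMM, R 4.3.3) with terms for mouse and treatment and 1 residual degree of freedom. The pairing comes from the labels; deviations of same-numbered libraries from group means correlated at 0.869, and principal component 1 (87.7% of variance) parted the mice. No library has a second preparation. The p-values for DKK1 rest on how far its difference varied between the 2 pairs, and on the spread shared across genes. Those for precursor cells 2 against 1 rest on the same residual. They do not measure the spread between preparations of 1 mouse. CPM are TMM-scaled. The script was tested on simulated data. Alternatives were DESeq2 1.42.0, limma-voom (limma 3.58.1), other scalings and filters, left-out libraries and summed overlapping models. Within-pair values of list genes use a prior count of 2. Counting intervals are exact (95%, SciPy 1.17.1) and cover counting error only. Positions are from GENCODE M21; near-identical transcripts were sought with BLAST 2.17.0 (95% identity over 100 bases and 50% of the shorter).

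The genes and lists were chosen with earlier results of these data known. Named were all 9 genes, their partners, the 3 list members with the highest mean FPKM, any called list member and the nearest profile of each gene; Itga3, Itga7 and Rac1 were added after their values were seen.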

Additional observations from a re-analysis of the deposited data

Results flagged for a closer look

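Atp6v0d2 and Cd9 had opposite signs in the pairs. The log2 difference of Atp6v0d2, DKK1 minus PBS, came to 0.397 in precursor cells 1 and -0.047 for precursor cells 2. That of Cd9 was -0.030 and 0.0035, within counting error in both pairs. Each pair is 1 library against 1, so these differences between the mice were not tested. The other 7 genes had the same sign in both pairs, against 51.7% of all genes tested.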

How the results depend on the processing

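With DKK1, 0 of the 9 genes and 0 list genes were called under any alternative run. With other scalings, filters and tools, with no replicate block and with overlapping models summed, the 9 log2 changes kept their sign, with Itgav from 0.55 to 0.61 and Cd44 from -0.34 to -0.32. With 1 pair left out, only a value with no test remains: without precursor cells 1 Atp6v0d2 turned to -0.047 and Cd9 to 0.0035, and Itgav was 0.15 and Cd44 -0.47. Without precursor cells 2 Itgav was 0.94 and Cd44 -0.21. Genes called over the whole table numbered 9, against 5 with upper-quartile scaling, 15 with a stricter filter, 2 with limma-voom, 46 with DESeq2, and 0 with no filter, with no replicate block and without any 1 library. The cause was not tested. With 1 library left out the pairing cannot be kept and the mice are unbalanced. The log2 change with DKK1 then ranged from -1.66 to 1.10 for Dcstamp, -1.29 to 0.46 for Ocstamp, -0.013 to 0.37 for Atp6v0d2, -0.15 to 0.13 for Cd9, -0.31 to 0.079 for Cd81, -0.08 to 0.071 for Adam8, -0.24 to 0.14 for Itgb3, 0.16 to 0.94 for Itgav and -0.50 to -0.17 for Cd44. The sign of Dcstamp, Ocstamp, Cd9, Cd81, Adam8 and Itgb3 turned positive without the DKK1 library of precursor cells 2 (0.58, 0.42, 0.11, 0.03, 0.071 and 0.14) and without the PBS library of precursor cells 1 (1.10, 0.46, 0.13, 0.079, 0.067 and 0.14), and that of Atp6v0d2 turned negative without the DKK1 library of precursor cells 1 (-0.013). Between the mice (precursor cells 2 against 1), 5905 genes were called, against 3507 with no filter and 3194 to 4570 without 1 library (3346 without the PBS library of precursor cells 2). Of the 9 genes 4 were called, against 2 with no filter, 2 with DESeq2, 6 with upper-quartile scaling and 1 to 3 without 1 library. Dcstamp and Adam8 lost the call with no filter and with DESeq2 (adjusted p = 0.0935 and 0.092 for Dcstamp, 0.0546 and 0.133 for Adam8). Without 1 library the difference between the mice ranged from -0.36 to 0.044 for Atp6v0d2, -0.84 to 0.10 for Itgav and -0.44 to 0.022 for Cd44, and the other 6 kept their sign. The left-out libraries between the mice and the counts of members there were chosen after seeing the data. Other prior counts moved no within-pair difference beyond its counting interval. Depth limits Dcstamp and Ocstamp, with 15 to 96 counts per library.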
